A study of Homo sapiens with 26 samples.

Results

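In order to compare knockdown of BRDT with knockdown of TP63 in 1 cell line, TE6 cells transfected with an siRNA against BRDT (siBRDT, 2 libraries) were compared directly with TE6 cells transfected with an siRNA against TP63 (siTP63, 2 libraries). These 4 libraries are 4 of the 26 mRNA-seq libraries of the series and were chosen by their labels alone. TE6 is an established human esophageal squamous cell carcinoma (ESCC) line, and its RNA was taken 48 h after transfection. The 2 TE6 libraries that received the non-targeting control siRNA (siCont) entered no test and serve only to say on which side of the control a gene lay. All 6 TE6 libraries had thus been transfected with some siRNA. A second ESCC line, KYSE180, carried the same knockdowns in separate experiments: 3 siCont and 3 siBRDT libraries in the first, 2 siCont and 2 siTP63 libraries in the second. Neither the labels nor the study's methods say whether replicates came from separate cultures, so p-values measure the spread between these libraries, which may be technical.

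BRDT is a member of the BET family, whose bromodomains bind acetylated lysines on histones and help to recruit the machinery that releases RNA polymerase II into elongation. The protein is normally found in male germ cells, where it takes part in the reorganisation of chromatin during sperm formation. TP63 encodes p63, a transcription factor of the p53 family; its isoform without the N-terminal activation domain, ΔNp63, maintains basal cells of squamous epithelia and drives basal keratins, adhesion molecules and proliferation. In squamous carcinomas TP63 is often amplified or highly expressed. A direct comparison of siBRDT with siTP63 leaves out what both transfections share, and responses to the siRNAs themselves were not tested.

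The study lists 4 siRNAs against BRDT and 2 against TP63, and the sources used here do not say which of them went into the TE6 cells. The groups compared are named by the target of these siRNAs, and the part of any single siRNA in the values was not tested. Each siRNA is given as its 19-base sense strand. The capitals mark bases 12 to 18, the stretch that pairs with the seed of the guide strand.
siCont, Non-targeting siRNA #5: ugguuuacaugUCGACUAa
siBRDT, listed as BRDT #2: caaaucaacuuCAGUAUCu
siBRDT, listed as BRDT #3: gaaaauggauaACCAAGAa
siBRDT, listed as BRDT #4: guagagagaacACUAAUGa
siBRDT, listed as BRDT #18: gagauaaacuuGGGCGAGu
siTP63, listed as TP63 #5: caucaugucugGACUAUUu
siTP63, listed as TP63 #8: cgacagucuugUACAAUUu

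On hg38 the BRDT sites lie on the plus strand of chromosome 1, inside exons of BRDT, at chr1:91962840-91962858, chr1:91978170-91978188, chr1:91979663-91979681 and chr1:91981008-91981026. They fall in coding sequence of 14, 8, 8 and 5 of the 24 BRDT transcripts of GENCODE release 44. The TP63 sites lie on the plus strand of chromosome 3. TP63 #8 (chr3:189867849-189867867) is held by 12 of the 14 TP63 transcripts, and TP63 #5 (chr3:189890812-189890830) by 5 of them. The TP63 #5 site is coding in those 5 and the TP63 #8 site in 11 of its 12. No other gene's transcripts held an exact match to any of the 6 targeting siRNAs, and the non-targeting siRNA had none in any transcript. All 7 seed stretches differed from each other.

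The TE6 libraries held 7582089 to 17331345 reads assigned to genes, and both ends of that range were siTP63 libraries. Replicates correlated with r = 0.982 to 0.993 across 13333 genes, which are not independent replicates. SiBRDT replicate 1 stood apart: reads were found for 20995 genes in it, against 16458 to 17569 in the other 5 libraries. Of these, 2674 were seen nowhere else, although they held 0.0681% of its reads. The summed level of 8 squamous markers lay between 71079 and 71909 in siCont, 33105 and 39070 in siBRDT, and 20729 and 22257 in siTP63. In siCont KRT6A and KRT5 weighed most in this sum. JUP went the other way (6772.5 and 6051 in siCont, 7570 and 8467 in siTP63). Epithelial markers (EPCAM, CDH1, KRT8, KRT18) summed to 35879 and 34803 in siBRDT, and to 23432 to 26310 in the other 4 libraries. The rise lay in KRT8 (19231 and 18797, against 11391 to 13015) and KRT18 (8429 and 9005, against 5010.5 to 6389). EPCAM (7273 and 6068, against 5996 to 6245) and CDH1 (946 and 933, against 912 to 1000.5) overlapped the other libraries. The part of this shift in the results was not tested. Leukocyte and germ cell markers summed to at most 25.9 and 4.32, with that leukocyte value in siBRDT replicate 1. Fibroblast markers were not absent and summed to 291 to 358 across the TE6 libraries. Endothelial markers summed to 66.8 and 50.8 in siCont, 82.0 and 45.4 in siBRDT, and 90.9 and 109.5 in siTP63. Values are normalised counts, that is gene counts divided by a size factor for each library.

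Each target was lowest with its own siRNA. BRDT was at 241 and 242 in siCont, 55.0 and 46.6 in siBRDT, and 233 and 220.5 in siTP63. The siBRDT minus siTP63 difference was -2.14 ± 0.20 (log2, SE, limma adjusted p = 8.84e-05, n = 2 and 2). TP63 was at 2596 and 2785 in siCont, 1282 and 1147 in siBRDT, and 133 and 112 in siTP63. Its difference was 3.30 ± 0.15 (adjusted p = 2.02e-06). TP63 was therefore at an intermediate level in siBRDT cells, below both siCont libraries and far above both siTP63 libraries, whereas BRDT in siTP63 cells lay close to its siCont values. The log2 scale is log2(value + 1) throughout, which understates differences of genes with low values, and a positive difference means higher with siBRDT.

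Across 13333 genes with a mean value of at least 10, 3413 (25.6%) were called at a Benjamini-Hochberg adjusted p under 0.05 and a difference of at least 0.5 in size. Of these, 1716 (12.9%) were higher with siBRDT and 1697 (12.7%) higher with siTP63. The median difference over all genes was -0.01. These shares of all genes tested are the background for every list count below. With 1 library of a group left out, the spread came from the other group's pair alone. The siBRDT pair correlated less (r = 0.982) than the siTP63 pair (r = 0.992). Fewer genes were called without a siTP63 library, and more without a siBRDT library. Such counts, here and for the lists below, therefore do not show that a call rests on the library left out. No gene called in the 4 libraries changed sign in any of these fits.

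The position of the siCont libraries showed which knockdown lay apart from the control for a called gene. Class positions are a description without a test, and both differences share the siCont libraries. A call also requires a gap of at least 0.5 between the knockdowns. That by itself moves the class shares of called genes away from those of all genes. In 1342 called genes (39.3%) the siTP63 mean lay at least 0.5 log2 units from siCont and the siBRDT mean did not, against 20.3% of all genes tested. In 917 (26.9%) the reverse held, as in 2131 of all 13333 genes tested. A further 193 genes (5.65%, against 1.55%) lay on opposite sides of siCont, 504 (14.8%, against 22.8%) on the same side at different distances, and 457 (13.4%, against 39.4%) had neither mean at that distance. Among the 275 genes higher with siBRDT whose means both lay on 1 side of siCont, 217 lay below siCont in both, with siTP63 the lower. Among the 229 genes higher with siTP63 of that kind, 170 lay above siCont in both, with siTP63 the higher. The largest class was thus the one in which siTP63 alone lay apart from the control, and the class of siBRDT alone came next.

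**Figure D1:**
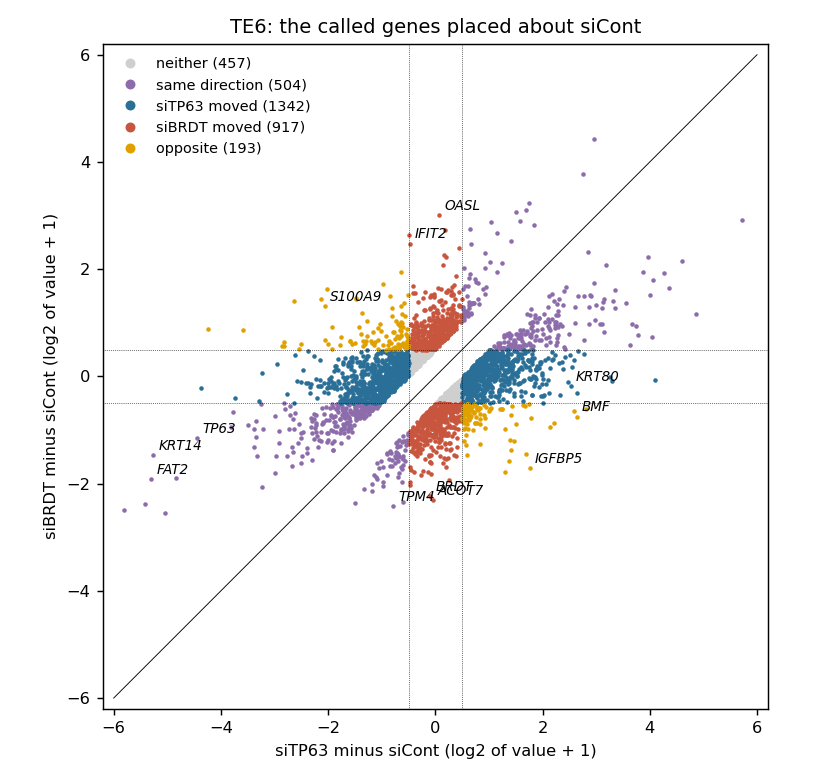
Each of the 3413 called genes of TE6 is placed by its siTP63 mean minus siCont mean (x axis, log2) and its siBRDT mean minus siCont mean (y axis, log2). Dotted lines mark 0.5 log2 units on either side of siCont, and the diagonal marks equal values; TP63, KRT14 and FAT2 lie far to the left, IFIT2 and OASL at the top, and IGFBP5 and BMF at the lower right.

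Genes that lay below siCont with siTP63 and near it with siBRDT were led by TPRG1, FAM216A and TEX19. TPRG1, which lies next to TP63 on chromosome 3, was at 193 and 204 in siCont, 147 and 152 in siBRDT, and 14.6 and 13.3 in siTP63 (difference 3.33 ± 0.26, adjusted p = 4.21e-05). FAM216A was at 141 and 146, 141 and 160.1, and 13.9 and 14.8 (3.30 ± 0.26, adjusted p = 4.21e-05). TEX19, normally a germ cell gene, was at 344 and 367, 429 and 573, and 71.0 and 63.6 (2.87 ± 0.19, adjusted p = 1.67e-05). In all of them the siTP63 libraries stood alone, with no overlap with the other 4 libraries. TPRG1 and FAM216A overlap genes on the opposite strand, and the sources used here do not give the strand setting of the counting, so reads of such pairs cannot be told apart.

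Those above siCont with siTP63 and near it with siBRDT were led by KRT80, FGFR1 and ALDH3B1. KRT80, an epithelial keratin, was at 228 and 242 in siCont, 189 and 225 in siBRDT, and 1309 and 1398 in siTP63 (-2.71 ± 0.14, adjusted p = 5.29e-06). The receptor tyrosine kinase gene FGFR1 was at 213 and 198, 129 and 202, and 1020.4 and 1043 (-2.67 ± 0.19, adjusted p = 2.83e-05). ALDH3B1, an aldehyde dehydrogenase gene, was at 58.9 and 62.9, 46.4 and 68.1, and 322 and 367 (-2.59 ± 0.22, adjusted p = 5.82e-05). Both siTP63 libraries were again the outlying pair, this time on the upper side. FGFR1 overlaps LETM2 on the opposite strand.

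Above siCont with siBRDT and near it with siTP63, the leading genes were the interferon-stimulated genes IFIT2, OASL and HERC5. IFIT2, which restrains translation of viral RNA, was at 280.4 and 301 in siCont, 1518 and 1733 in siBRDT, and 173 and 250.1 in siTP63 (2.96 ± 0.17, adjusted p = 8.30e-06). OASL, an antiviral protein related to the oligoadenylate synthetases, was at 310.3 and 326, 2343 and 2801, and 336 and 331 (2.94 ± 0.13, adjusted p = 1.88e-06). HERC5, the ligase that attaches ISG15 to proteins, was at 417 and 438, 2160.0 and 1869.5, and 467 and 510.5 (2.04 ± 0.12, adjusted p = 9.15e-06). The siBRDT libraries were the only high ones for these genes. IFIT2 overlaps LIPA on the opposite strand.

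Below siCont with siBRDT and near it with siTP63, the leading genes besides BRDT itself were ACOT7 and ROS1. ACOT7, an acyl-CoA thioesterase, was at 1007 and 972 in siCont, 192 and 205 in siBRDT, and 934 and 975 in siTP63 (-2.26 ± 0.13, adjusted p = 7.80e-06). ROS1, a receptor tyrosine kinase gene, was at 184 and 177, 43.2 and 50.2, and 214 and 219 (-2.19 ± 0.20, adjusted p = 8.17e-05). The siCont and siTP63 libraries lay close together for both.

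The genes on opposite sides of the control included S100A9, IGFBP5 and BMF. S100A9, a calcium-binding protein of inflamed squamous epithelium, was at 349 and 349 in siCont, 869 and 865 in siBRDT, and 98.9 and 69.5 in siTP63 (3.37 ± 0.18, adjusted p = 6.11e-06). IGFBP5, a binding protein for insulin-like growth factors, was at 861 and 805, 215 and 297, and 2721 and 2922 (-3.47 ± 0.16, adjusted p = 2.02e-06). BMF, a pro-apoptotic member of the BCL2 family, was at 119.6 and 103, 50.7 and 84.8, and 665 and 727 (-3.39 ± 0.23, adjusted p = 1.81e-05). For these 3 genes siCont lay between the knockdowns. Other large differences toward siTP63 were seen for SMPD1 (-3.14), the acid sphingomyelinase gene, DEGS2 (-3.02), a sphingolipid desaturase gene that overlaps EVL, and NMNAT2 (-2.78), which makes NAD.

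A gene below siCont with both knockdowns was PTHLH, the gene of parathyroid hormone-related protein. It was at 935 and 980.2 in siCont, 309 and 314 in siBRDT, and 354 and 334 in siTP63. The difference of -0.14 ± 0.14 did not pass the test (adjusted p = 0.455).

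**Figure D2:**
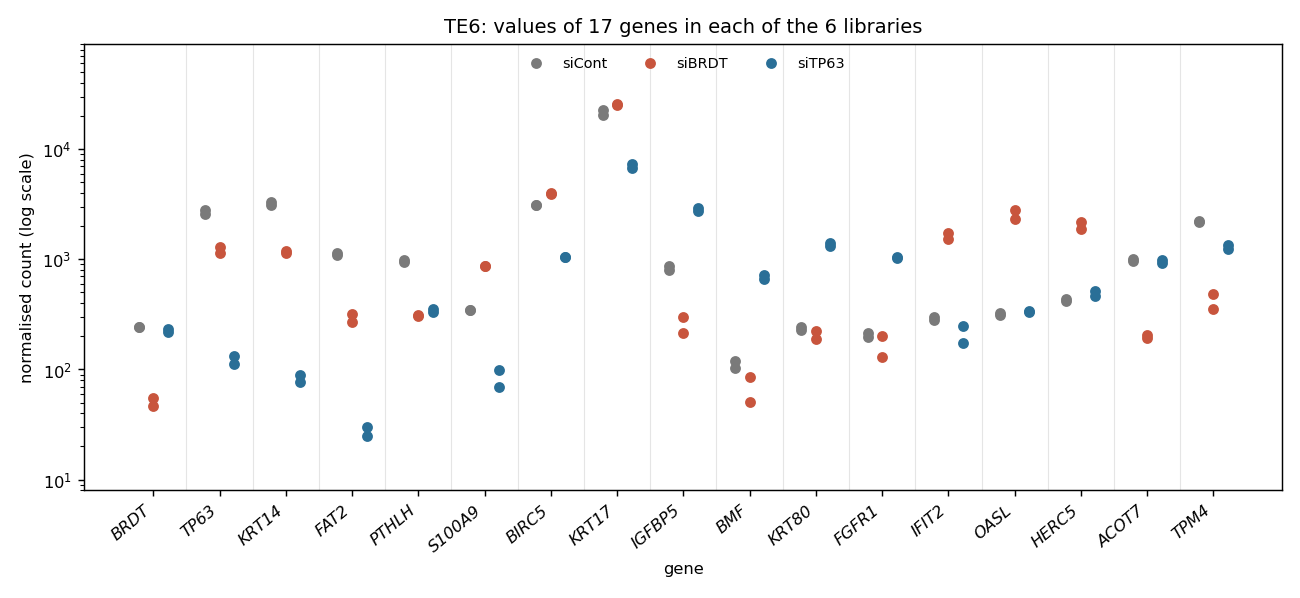
Normalised counts of 17 genes (log axis) are shown as 1 point for each of the 6 TE6 libraries, grey for siCont, red for siBRDT and blue for siTP63; coinciding points overlap. BRDT and ACOT7 are low only in siBRDT, BIRC5 and KRT17 are low only in siTP63, and TP63, KRT14 and FAT2 step down from siCont through siBRDT to siTP63.

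The squamous program differed most plainly in its keratins. All 8 basal and stress keratins were called higher with siBRDT, with a median difference of 1.73, and 7 or 8 of them were called when any 1 library was left out. Relative to siCont the median of the list was -0.73 with siBRDT and -1.91 with siTP63. KRT14, the partner of KRT5 in basal keratinocytes, was at 3320.3 and 3109.5 in siCont, 1189 and 1134 in siBRDT, and 77.6 and 88.8 in siTP63 (3.79 ± 0.15, adjusted p = 1.02e-06). KRT5 was at 15986 and 15149.6, 4620.0 and 6657, and 1513 and 1604 (1.83 ± 0.16, adjusted p = 5.97e-05). KRT17, a keratin of wounded and transformed epithelium, was at 22867 and 20459, 25654 and 25018, and 6685 and 7256 (1.86 ± 0.10, adjusted p = 6.11e-06). KRT14 and KRT5 were therefore low with both siRNAs and lowest with siTP63, whereas KRT17 was low with siTP63 alone. These keratin genes have close relatives in the genome, so reads of KRT6A, KRT6B and KRT6C, and of KRT14, KRT16 and KRT17, may have been shared or lost. Among simple epithelial keratins 1 of 7 was higher with siBRDT, KRT8 (0.58 ± 0.10, adjusted p = 0.00174), and 1 lower, KRT80. That share of 28.6% was near the 25.6% of all genes tested.

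FAT2, a giant protocadherin of squamous epithelium, was at 1145 and 1085 in siCont, 271 and 318 in siBRDT, and 29.9 and 25.2 in siTP63 (3.37 ± 0.21, adjusted p = 1.32e-05). The order siCont, siBRDT, siTP63 was the same as for TP63 and KRT14. Of the 10 large cadherins and adhesion genes tested, 2 (FAT2 and PVRL1) were higher and 4 lower with siBRDT. PVRL4, the nectin-4 gene, was at 429 and 447 in siBRDT and 1107 and 1274 in siTP63 (-1.44 ± 0.13, adjusted p = 6.78e-05), with siCont at 439 and 416. CDH3, the P-cadherin gene of basal cells, was at 921 and 1272 in siBRDT, and 2038 and 2166 in siTP63 (-0.96 ± 0.15, adjusted p = 0.0013), with siCont at 1731 and 1728. Lower calls numbered 2 with either siTP63 library left out, and higher calls 1 without siTP63 replicate 1.

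Of 10 desmosome genes, DSG3 and PKP1 were higher with siBRDT and none was lower, with a list median of 0.22. The share called was 20%, against 25.6% of all genes tested. Without siBRDT replicate 2 more were called higher. DSG3, a desmosomal cadherin, was at 1799 and 1844 in siBRDT and 989 and 993 in siTP63 (0.88 ± 0.11, adjusted p = 0.000346), and PKP1 at 3097 and 3798 against 2004 and 2116 (0.74 ± 0.12, adjusted p = 0.00171). Their siCont values, 2267 and 2572 for DSG3 and 4234 and 3799 for PKP1, lay above both siTP63 libraries. In the hemidesmosome and laminin-332 list, which anchors basal cells to the basement membrane, the median was -0.01 and 3 of 11 genes were called. That share of 27.3% was near the 25.6% of all genes tested. ITGB4 (0.62 ± 0.11, adjusted p = 0.0027) and LAMB3 (-0.59 ± 0.12, adjusted p = 0.00539) lost their calls without siTP63 replicate 1 (adjusted p = 0.0675) and without siTP63 replicate 2 (adjusted p = 0.123).

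The differentiation genes split. Of 12 cornified envelope and suprabasal genes, 6 were higher and 4 lower with siBRDT, and S100A8 and S100A9 had the largest differences of the first group. S100A8, the partner of S100A9 in calprotectin, was at 23.7 and 19.1 in siBRDT and 0.663 and 1.48 in siTP63 (3.46 ± 0.62, adjusted p = 0.0028), with siCont at 11.4 and 15.5. Of 13 S100 genes 6 were higher with siBRDT and 1 lower. S100A2, an S100 gene of basal keratinocytes and outside the naming rule, was at 36146 and 31942 in siBRDT and 9026 and 7811 in siTP63 (2.02 ± 0.11, adjusted p = 7.74e-06). Of the 4 genes lower with siBRDT, PPL (-1.36) and EVPL (-0.52) encode plakins of the cornified envelope, FLG (-1.08) filaggrin and KRT4 (-1.40) a suprabasal keratin. Without siTP63 replicate 2, 2 of these lower calls were made. Among 24 squamous transcription factors, 5 were higher and 6 lower with siBRDT, against 3 and 3 without siTP63 replicate 2. SOX15 was at 206 and 258 in siBRDT and 47.8 and 38.5 in siTP63 (2.40 ± 0.22, adjusted p = 8.19e-05), with siCont at 249 and 245, and KLF4, a factor of differentiation, was at 299 and 307 against 93.6 and 108 (1.58 ± 0.17, adjusted p = 0.000179), with siCont at 115 and 102. SOX15 was therefore low with siTP63, and KLF4 high with siBRDT. The lower group held GRHL1, GRHL2 and GRHL3, the grainyhead factors of the epidermal barrier, with differences of -1.17, -0.88 and -1.35. SOX2, at 2184 and 2055 in siBRDT and 2144 and 2072 in siTP63, did not pass the test (0.01 ± 0.10, adjusted p = 0.965).

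**Figure D3:**
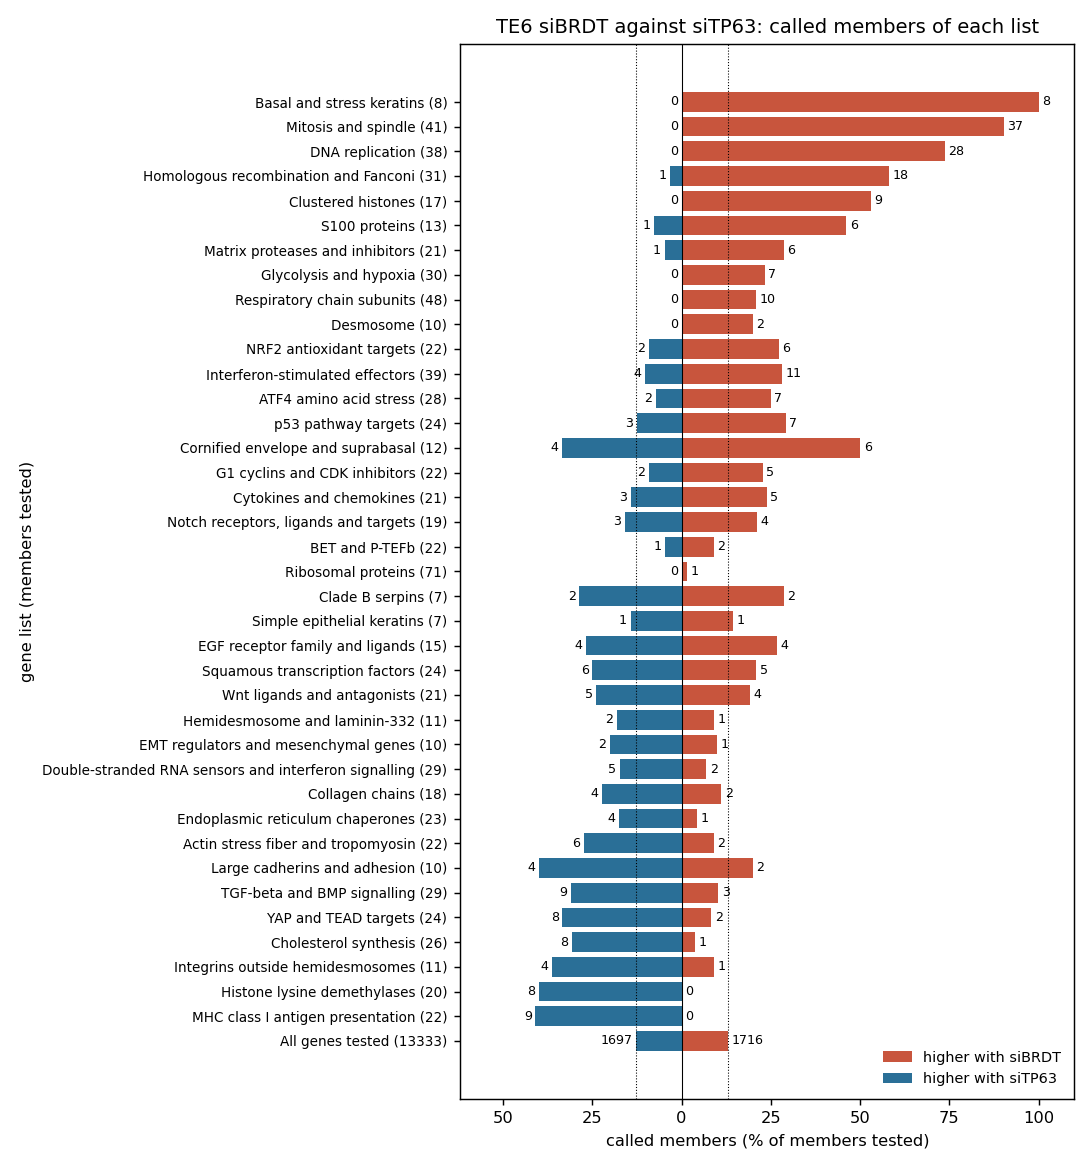
For each of 38 gene lists with at least 5 tested members, red bars give the percentage of members called higher with siBRDT and blue bars the percentage called higher with siTP63, with counts at the bar ends; dotted lines mark the background of 12.9% and 12.7%. Basal keratins, mitosis and DNA replication lists reach farthest to the siBRDT side, and MHC class I genes and histone lysine demethylases farthest to the siTP63 side.

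Genes of cell division gave the highest numbers of called members of any list. Of 41 mitosis and spindle genes, 37 were higher with siBRDT and none was lower (median 0.97), and 28 to 36 were called when 1 library was left out. Of 38 DNA replication genes, 28 were higher and none was lower (median 0.77). The medians against siCont were -0.61 with siBRDT and -1.44 with siTP63 for mitosis, and -0.01 and -0.71 for replication. BIRC5, the survivin gene, was at 3097 and 3124 in siCont, 3925 and 3977 in siBRDT, and 1042 and 1045 in siTP63 (1.92 ± 0.10, adjusted p = 6.11e-06). CENPF, a kinetochore gene, was at 2454 and 2546, 1116 and 1309, and 435 and 448 (1.45 ± 0.13, adjusted p = 7.01e-05). Some mitotic genes were thus low with siTP63 alone and others with both siRNAs. POLA2, a subunit of the primase complex, was at 588 and 623 in siCont, 791 and 883 in siBRDT, and 342 and 342 in siTP63 (1.29 ± 0.13, adjusted p = 0.000119). GINS1, part of the replicative helicase, was at 888 and 902, 937 and 768, and 351 and 321 (1.33 ± 0.14, adjusted p = 0.000172).

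The promoters of the mitosis list were searched for shared letters over all its members, called or not. The shares therefore describe the list and do not bear on siBRDT against siTP63. The cell cycle genes homology region (CHR, letters TTTGAA) was searched on both strands from 250 bases before to 50 bases after the gene start in RefSeq promoters (GRCh38.p14). It was present in 23 of the 34 mitosis genes with an entry (67.6%), in 1 of 34 replication genes (2.94%) and in 15.4% of all 27305 promoters. Among the 9918 tested genes with an entry the share was 9.54%. BUB1B and HMMR, mitosis genes without a call, held the letters too. The CCAAT box (letters CCAAT) was present in 76.5% of the mitosis promoters, 35.7% of all promoters and 36.8% of those of tested genes. Stretches of 30 bases with the CHR letters in capitals, 5′ to 3′ on the gene's strand, are shown for 3 regulators of mitosis chosen after their values were seen, at chr15:59105105-59105134, chr16:23678848-23678877 and chr1:43358904-43358933. A match is a description of the sequence and not of binding.
CCNB2: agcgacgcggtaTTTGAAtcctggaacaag
PLK1: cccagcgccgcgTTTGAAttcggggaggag
CDC20: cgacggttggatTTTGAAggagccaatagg

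Repair and cell cycle entry genes followed in part. Of 31 homologous recombination and Fanconi genes, 18 were higher with siBRDT and 1 lower (median 0.58), but with either siTP63 library left out 8 were called higher. EXO1, a repair exonuclease, was at 539 and 722 in siBRDT and 285 and 257 in siTP63 (1.20 ± 0.16, adjusted p = 0.000662), with siCont at 659 and 709.8. Among 22 G1 cyclins, kinases and inhibitors, 5 were higher and 2 lower, with 3 higher without siTP63 replicate 1 and 8 without siBRDT replicate 2. CDK6 was at 622 and 687 in siCont, 515 and 409.7 in siBRDT, and 177 and 189 in siTP63 (1.32 ± 0.16, adjusted p = 0.000353). CDKN1C, the inhibitor p57, was at 83.5 and 92.2, 85.2 and 84.8, and 334 and 379 (-2.05 ± 0.17, adjusted p = 5.02e-05). The kinase was low and the inhibitor high with siTP63. Of the G1 list 31.8% was called, against 25.6% of all genes tested. Of 17 clustered histone genes 9 were higher with siBRDT and none lower. Those with the largest differences, HIST1H3B and HIST1H1E, had at most 3.98 in siTP63, and the list count was 3 with DESeq2 and 3 without siTP63 replicate 2. Histone genes are near-identical copies, so their counts are uncertain. In the p53 target list, 7 of 24 were higher and 3 lower (median 0.29), a share called of 41.7%. Of the higher ones, GDF15 was at 339 and 375 in siBRDT and 163 and 148 in siTP63 (1.19 ± 0.16, adjusted p = 0.000512), with siCont at 109 and 91.3. Of the lower ones, BBC3, the pro-apoptotic gene PUMA, was at 62.6 and 64.5 in siBRDT and 195 and 173 in siTP63 (-1.52 ± 0.19, adjusted p = 0.000449), with siCont at 73.8 and 54.3.

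Interferon-stimulated effectors were above siCont in both knockdowns of TE6, with list medians of 1.45 for siBRDT and 1.12 for siTP63, yet single genes differed widely between them. Of 39 genes tested, 11 were higher with siBRDT and 4 higher with siTP63 (median 0.19). IFIT1 and ISG15, outside the naming rule, show the first pattern. IFIT1 was at 358 and 356 in siCont, 2819 and 3195.5 in siBRDT, and 937 and 1108 in siTP63 (1.56 ± 0.12, adjusted p = 4.42e-05). ISG15, a ubiquitin-like modifier, was at 488 and 340.2, 10675 and 7269, and 3251 and 3066 (1.48 ± 0.16, adjusted p = 0.00018). TRIM22 and IFI44L, also outside the rule, show the second, with siTP63 the highest: TRIM22 was at 4.40 and 4.31, 29.1 and 13.1, and 75.6 and 78.4 (-1.92 ± 0.37, adjusted p = 0.0038). IFI44L was at 125.7 and 123.2, 374 and 376, and 678 and 645 (-0.82 ± 0.13, adjusted p = 0.00122). Higher calls numbered 10 or 11 when any 1 library was left out.

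Some immune genes outside the effector list lay apart from siCont with siBRDT alone. DDX60, a helicase that aids RNA sensing, was at 251 and 286 in siCont, 916 and 779 in siBRDT, and 274 and 283 in siTP63 (1.60 ± 0.14, adjusted p = 5.97e-05). CCL5, a chemokine, was at 18.5 and 16.4, 124 and 118, and 23.9 and 16.3 (2.56 ± 0.28, adjusted p = 0.000196). IRF2, a repressor and activator of interferon genes, was at 311 and 343, 131 and 154, and 306 and 275 (-1.03 ± 0.17, adjusted p = 0.00166). The siBRDT libraries were high for DDX60 and CCL5 and low for IRF2. Of 22 MHC class I antigen presentation genes, none was higher with siBRDT and 9 were lower (median -0.46), although 3 were called with either siTP63 library left out. ERAP2, a peptidase that trims antigenic peptides, was at 349 and 390.2 in siCont, 233 and 274 in siBRDT, and 614 and 633 in siTP63 (-1.30 ± 0.14, adjusted p = 0.000196). The other 8 included HLA-C (-0.55), a gene of many alleles, TAPBP (-0.68) and PSMB9 (-0.78). Among 21 cytokines and chemokines 5 were higher and 3 lower, against 2 and 1 without siTP63 replicate 1 and 4 and 1 without replicate 2; LIF was at 34.5 and 35.8 in siBRDT and 8.63 and 5.92 in siTP63 (2.15 ± 0.41, adjusted p = 0.00369), with both siCont libraries between those groups.

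The interferon-stimulated response element (ISRE, letters GAAA, any 2 bases, then GAAA, both strands) is present in 3.65% of all 27305 promoters. Promoter entries existed for 29 of the 39 effectors, too few of the list, so a check of its share is void. Stretches from 3 genes called higher with siBRDT, IFIT1 and ISG15 chosen after their values were seen, are shown with the match in capitals, at chr10:89392510-89392539, chr1:1013380-1013409 and chr4:88457035-88457064. Where the capitals begin with TTTC the match is on the other strand. The letters were also held by effectors not called higher with siBRDT. Of effectors with an entry, 6 of 7 called higher held them, and 14 of 22 others. With so many effectors lacking an entry, these shares were not compared.
IFIT1: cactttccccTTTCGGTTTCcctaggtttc
ISG15: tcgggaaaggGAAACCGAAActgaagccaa
HERC5: aaacattatgTTTCGTTTTCcactggagct

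Lists of cell shape, adhesion and the matrix were mixed. Of 22 actin stress fiber and tropomyosin genes, 6 were lower with siBRDT and 2 higher (median -0.34), and with either siTP63 library left out 3 were called lower and none higher. TPM4, a tropomyosin, was at 2199 and 2239 in siCont, 354 and 485 in siBRDT, and 1339 and 1243 in siTP63 (-1.64 ± 0.16, adjusted p = 0.000103). VCL, which links actin to adhesion sites, was at 1619 and 1491, 606 and 744, and 1196 and 1209 (-0.84 ± 0.13, adjusted p = 0.00127). MYL12A, a myosin light chain, was at 3537 and 3669, 4020.1 and 3702, and 7028 and 6845 (-0.85 ± 0.10, adjusted p = 0.000298). TPM4 and VCL were thus low with siBRDT, whereas MYL12A was high with siTP63. Of the actin list 36.4% was called, against 25.6% of all genes tested. Of 11 integrin genes outside hemidesmosomes, 4 were lower and 1 higher with siBRDT. Of the lower calls, none remained with either siTP63 library left out and 2 were made without siBRDT replicate 1. The gene higher with siBRDT was ITGA2. ITGA2, a collagen receptor chain, was at 591 and 618 in siCont, 263 and 177 in siBRDT, and 98.2 and 117 in siTP63 (1.00 ± 0.22, adjusted p = 0.00727), and lost its call without siTP63 replicate 1 (adjusted p = 0.0732).

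Of 18 collagen genes 2 were higher and 4 lower with siBRDT, against 1 and 2 without siTP63 replicate 2. COL7A1, the anchoring fibril collagen, was at 4031 and 3370.5 in siCont, 3387 and 3536 in siBRDT, and 903 and 1011 in siTP63 (1.86 ± 0.11, adjusted p = 8.30e-06). COL4A5, a basement membrane collagen, was at 519 and 475, 228 and 246, and 476 and 506 (-1.05 ± 0.14, adjusted p = 0.000563). The pair is a mirror image, with COL7A1 low only with siTP63 and COL4A5 low only with siBRDT. Of the collagens 33.3% were called, and of the matrix proteases and inhibitors also 33.3%, against 25.6% of all genes tested. Among 21 matrix proteases and inhibitors 6 were higher with siBRDT and 1 lower, and without siTP63 replicate 2, 3 were higher. MMP1, the interstitial collagenase, was at 14.9 and 21.5 in siCont and 28.1 and 40.6 in siBRDT, and had no reads in either siTP63 library (adjusted p = 0.000471). Against 3 reads in each siTP63 library, the number that a count of 0 allows, siBRDT was at least 10.7-fold higher. SERPINE2, a protease inhibitor, was at 392 and 386 in siBRDT and 79.0 and 97.7 in siTP63 (2.13 ± 0.17, adjusted p = 5.02e-05), with siCont at 421 and 473. SNAI2, a repressor of epithelial genes that is also found in basal keratinocytes, was at 189 and 198 in siBRDT and 31.8 and 35.5 in siTP63 (2.49 ± 0.21, adjusted p = 5.97e-05), with siCont at 202 and 208. No other EMT gene of the 10 tested was higher with siBRDT, and CDH2 (-1.14) and FN1 (-1.20), the N-cadherin and fibronectin genes, were lower. With either siTP63 library left out, neither was called.

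Targets and partners of YAP and TEAD were called lower with siBRDT in 8 of 24 genes and higher in 2 (median -0.22). VGLL1, a TEAD cofactor, was at 3.52 and 6.03 in siCont, 42.1 and 40.6 in siBRDT, and 280.0 and 311 in siTP63 (-2.81 ± 0.19, adjusted p = 2.03e-05). CYR61, a secreted matrix protein, was at 102 and 104, 102 and 128, and 431 and 481 (-1.98 ± 0.17, adjusted p = 6.18e-05). TEAD3 itself was at 407 and 402, 334 and 489, and 1032 and 1111 (-1.40 ± 0.17, adjusted p = 0.000369). All of them were highest with siTP63. Without siTP63 replicate 2, 5 were called lower, and without siTP63 replicate 1 none was called higher.

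Signalling lists were mixed, with single members far apart. Of 29 TGF-beta and BMP genes 3 were higher and 9 lower with siBRDT, with 4 lower when either siTP63 library was left out. SMAD6, an inhibitor of BMP signalling, was at 66.8 and 66.3 in siCont, 63.7 and 98.0 in siBRDT, and 331 and 336 in siTP63 (-2.06 ± 0.22, adjusted p = 0.000156), and ID2, a BMP target, at 194 and 204, 209 and 179, and 489 and 459 (-1.29 ± 0.15, adjusted p = 0.000276). BMP4, a ligand, was at 61.5 and 43.1, 62.6 and 109, and 206 and 203 (-1.30 ± 0.25, adjusted p = 0.00389). The ligand, the target and the inhibitor were thus all highest with siTP63. Of 21 Wnt ligands and antagonists 4 were higher and 5 lower. Without siTP63 replicate 1 these counts were 2 and 2, without replicate 2 they were 2 and 1, and without siBRDT replicate 1 they were 4 and 9. SOST, a secreted antagonist, was at 541 and 463 in siCont, 76.6 and 100.3 in siBRDT, and 10.6 and 5.92 in siTP63 (3.31 ± 0.37, adjusted p = 0.000226). DKK3 was at 4421 and 4486, 2031 and 2748, and 396 and 397 (2.57 ± 0.15, adjusted p = 7.80e-06), and overlaps USP47. SOSTDC1 was at 509 and 525, 148 and 172, and 387 and 359.6 (-1.22 ± 0.16, adjusted p = 0.000476). SOST and DKK3 were therefore lowest with siTP63 and SOSTDC1 lowest with siBRDT.

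In the list of EGF receptor family members, ligands and regulators, 4 genes of 15 were higher (2 without siTP63 replicate 2) and 4 lower with siBRDT. Called receptors were EGFR (0.76), higher, and ERBB2 (-1.18) and ERBB4 (-0.96), lower, chosen after their values were seen. EPGN, epigen, was at 53.9 and 51.4 in siBRDT and 17.9 and 10.4 in siTP63 (1.87 ± 0.36, adjusted p = 0.00381), with siCont at 39.6 and 48.2. NRG1, a ligand of ERBB3 and ERBB4, was at 468 and 538 against 209 and 209 (1.26 ± 0.14, adjusted p = 0.000254), with siCont at 541 and 566. BTC, betacellulin, was at 18.3 and 27.5 against 75.6 and 91.7 (-1.84 ± 0.30, adjusted p = 0.00159), with siCont at 37.8 and 31.9. EPGN and NRG1 were low with siTP63 and BTC was high. Of 19 Notch genes, 4 were higher and 3 lower, a share called of 36.8% against 25.6% of all genes tested. NOTCH3 was at 1907 and 1694 in siCont, 667 and 761 in siBRDT, and 1396 and 1574 in siTP63 (-1.06 ± 0.12, adjusted p = 0.00029), so it was low with siBRDT. Without siTP63 replicate 1, 1 Notch gene was called higher and 1 lower, and without replicate 2, 2 and 1.

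Among metabolic lists, cholesterol synthesis and uptake had 8 of 26 genes lower with siBRDT and 1 higher (median -0.33). The share called was 34.6%, against 25.6% of all genes tested. SREBF2, a transcription factor that drives sterol synthesis genes, was at 2149 and 1973 in siCont, 1051 and 1295 in siBRDT, and 1893 and 1959 in siTP63 (-0.72 ± 0.13, adjusted p = 0.00226), so it was low with siBRDT. The lower calls numbered 5 without siTP63 replicate 1 and 3 without replicate 2. Of 30 glycolysis and hypoxia genes, 7 were higher with siBRDT and none lower (median 0.36), a share called of 23.3% against the background of 25.6% in either direction and 12.9% higher. LDHA, which makes lactate, was at 7084 and 7599.8 in siCont, 6171 and 7306 in siBRDT, and 2779 and 2632 in siTP63 (1.31 ± 0.11, adjusted p = 6.19e-05). HK2, the first enzyme of glycolysis, was at 759 and 767, 562 and 466, and 182 and 185 (1.47 ± 0.15, adjusted p = 0.000144). Both enzymes were lowest with siTP63. Without siBRDT replicate 1 the glycolysis count was 14.

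Stress and antioxidant genes varied by member. DDIT4, an inhibitor of mTORC1 in the ATF4 list, was at 1552 and 1503 in siCont, 2005 and 2392 in siBRDT, and 697 and 756 in siTP63 (1.59 ± 0.12, adjusted p = 4.21e-05). PDIA4, a chaperone of the endoplasmic reticulum, was at 6542 and 6135, 1064 and 1467, and 4063 and 4260.0 (-1.73 ± 0.15, adjusted p = 5.84e-05). GCLM, which limits glutathione synthesis, was at 514 and 520.3, 662 and 481, and 238 and 268 (1.16 ± 0.17, adjusted p = 0.00104). DDIT4 was thus moved apart from siCont on either side, PDIA4 was lowest with siBRDT and GCLM with siTP63. Of 28 ATF4 genes 7 were higher and 2 lower, of 23 chaperones 1 and 4, and of 22 NRF2 targets 6 and 2. The shares called were 32.1%, 21.7% and 36.4%, against 25.6% of all genes tested. With either siTP63 library left out, each of these lists had 1 gene called lower. Respiratory chain subunits were higher with siBRDT in 10 of 48 and lower in none (median 0.26). That is 20.8% called, against the background of 25.6% in either direction and 12.9% higher. Fewer were called higher without siTP63 replicate 2. UQCRC1, a complex III core subunit, was at 7139 and 6545 in siCont, 9999.5 and 9824 in siBRDT, and 5677 and 5797 in siTP63 (0.79 ± 0.10, adjusted p = 0.000345). Of 71 ribosomal protein genes 1 was called (1.41%), a share below the background of 25.6%.

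Among chromatin genes, BRDT itself had the largest difference in size among called members of the BET and P-TEFb list. Of that list 13.6% was called, against 25.6% of all genes tested. Of 22 BET and P-TEFb genes, BRDT was lower, and AFF1 (0.68 ± 0.18, adjusted p = 0.0166) and CTR9 (0.61 ± 0.13, adjusted p = 0.00549), both elongation factors, were higher with siBRDT. Neither of the latter calls remained with siTP63 replicate 1 or 2 left out, with adjusted p up to 0.174 and 0.132. Histone lysine demethylases were lower with siBRDT in 8 of 20 and higher in none (median -0.35), with 1 when either siTP63 library was left out and 5 without siBRDT replicate 1. KDM2A was at 2482 and 2428 in siCont, 2027 and 2291 in siBRDT, and 3438 and 3610.4 in siTP63 (-0.71 ± 0.11, adjusted p = 0.00116). It was therefore high with siTP63.

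The called genes also differed in properties of their transcripts. Genes above siCont with siBRDT alone had a median longest transcript of 2176 bases and a median GC content of 56.9%, and genes below it with siBRDT alone 4967 bases and 45.0%, against 3814 bases and 48.1% over all genes tested. For genes above siCont with siTP63 alone the medians were 3685 bases and 51.7%, and for those below it 3552 bases and 45.7%. With the trend of each library along both properties taken out, 340 of 432 genes above siCont with siBRDT alone and 429 of 472 below it were still called in the same direction. For siTP63 alone these were 610 of 647 and 650 of 677. The 37 mitosis genes and the 11 interferon effectors were as many after this step, and the respiratory chain subunits were 7 instead of 10. Beyond these counts the part of transcript length and GC content in the differences was not tested.

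In order to see which differences held in a second line, the change with siBRDT minus the change with siTP63 was computed in KYSE180 from libraries that share none with TE6. The KYSE180 knockdowns were made in separate experiments with their own siCont, so the experiment and the siRNA cannot be told apart there beyond what those controls remove. Of 13311 genes tested, 7620 (57.2%) were called, 3946 higher and 3674 lower with siBRDT. Among the 3203 genes called in TE6 and tested in KYSE180, 2779 (86.8%) had the same sign, against 70.0% of all 12526 genes tested in both. The share was 95.5% for genes apart from siCont with siBRDT alone in TE6, 84.7% with siTP63 alone, 88.2% with both on opposite sides and 72.7% with both on the same side. Of 2379 genes called in both lines, 2233 (93.9%) had the same sign.

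Named genes with like differences in both lines included IGFBP5 (-3.43 in KYSE180, adjusted p = 8.80e-12), BMF (-3.12, adjusted p = 1.25e-08), S100A9 (2.83, adjusted p = 6.64e-07), BIRC5 (2.11, adjusted p = 2.21e-09), FAM216A (2.79, adjusted p = 1.41e-09) and TPM4 (-1.64, adjusted p = 2.69e-09). For these genes the difference between the lines did not pass the test described next (adjusted p = 0.121 to 0.996). In KYSE180, 34 of 38 DNA replication and 29 of 41 mitosis genes were higher with siBRDT and none was lower, against 3946 of all 13311 genes higher there. In that line 61 of 71 ribosomal protein genes and 44 of 48 respiratory chain genes were also higher and none was lower, where TE6 had 1 and 10 higher. TP63 and its squamous genes differed less there, with 1.12 for TP63 (adjusted p = 3.32e-06), 1.61 (adjusted p = 1.56e-07) for the basal keratin gene KRT14 and 0.72 for FAT2 (adjusted p = 0.00133), and 5 of the 8 basal and stress keratins were higher. KRT5 did not pass the test in KYSE180 (-0.17, adjusted p = 0.311). Against siCont, TP63 itself changed by -1.70 with siTP63 and -0.58 with siBRDT in KYSE180. In TE6 these changes were -4.45 and -1.15. The part of this unlike depth of knockdown in the differences between the lines was not tested. A contrast of the lines, chosen after the data were seen, gave a difference of 2.18 for TP63 (adjusted p = 1.40e-07), 2.18 (adjusted p = 1.89e-07) in the case of KRT14 and 2.65 for FAT2 (adjusted p = 1.40e-07). The lines differed for 5240 of 12526 genes in this contrast.

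**Figure D4:**
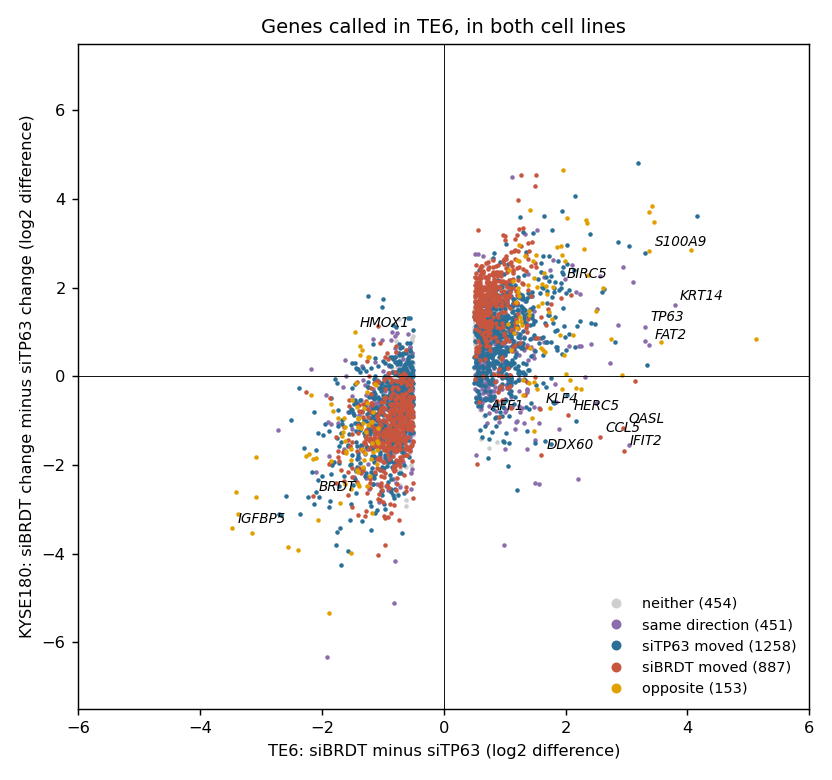
The siBRDT minus siTP63 difference in TE6 (x axis, log2) is plotted against the difference of the same knockdowns' changes in KYSE180 (y axis, log2) for the 3203 genes called in TE6 and tested in both, coloured by the position of siCont in TE6. Most genes lie in the lower left and upper right, and IFIT2, OASL, HERC5, CCL5 and DDX60 lie at the lower right.

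The interferon effectors were mostly called lower with siBRDT in KYSE180. Of 40 tested there, none was higher with siBRDT and 31 were lower, with a median of -1.61. Of all 13311 genes tested there, 3946 were higher and 3674 lower. The list median against siCont in KYSE180 was 0.06 with siBRDT and 1.66 with siTP63, whereas in TE6 it was 1.45 and 1.12. Both siRNAs thus went with higher effector levels in TE6, and siTP63 alone did so in KYSE180. IFIT2 was -1.67 in KYSE180 (adjusted p = 9.26e-07) against 2.96 in TE6, and OASL -1.17 (adjusted p = 1.86e-06) against 2.94. TRIM22 and IFI44L kept the TE6 direction, with -6.32 and -5.11. RNA sensors (18 of 29), histone lysine demethylases (15 of 20) and YAP and TEAD genes (16 of 25) were lower with siBRDT in KYSE180, with medians of -0.94, -0.77 and -0.77. These counts stand beside a line in which 57.2% of all genes tested were called in either direction.

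**Figure D5:**
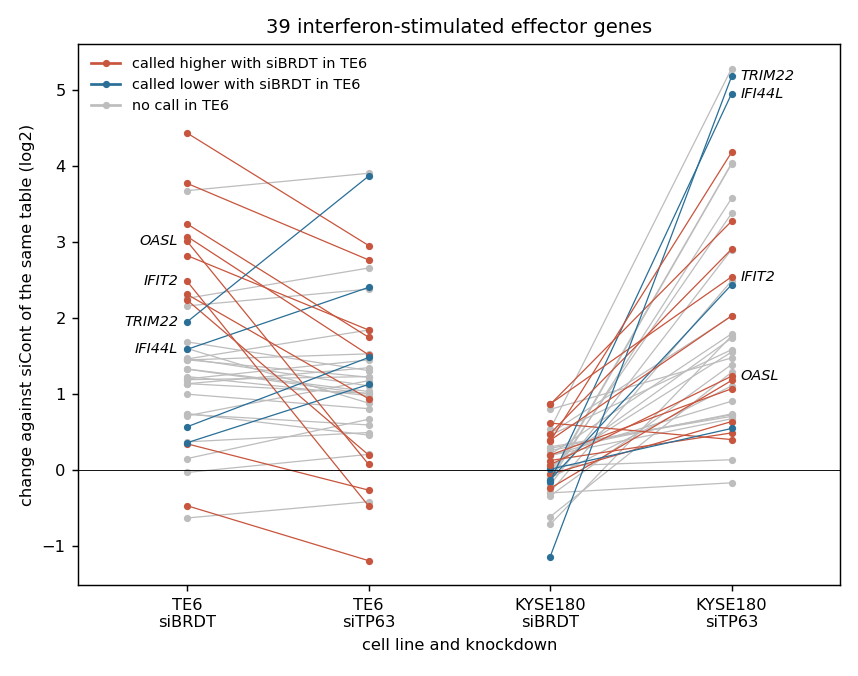
Log2 changes against siCont of the same table are shown for 39 interferon-stimulated effector genes, as lines joining siBRDT and siTP63 within each cell line; red genes (11) were called higher and blue genes (4) lower with siBRDT in TE6, and grey genes (24) had no call. In TE6 most genes lie above 0 with both siRNAs, and in KYSE180 they lie near 0 with siBRDT and mostly above it with siTP63.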

How the data were processed

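Deposited values were used for TE6 (6 libraries) and KYSE180 (10 libraries). Per the labels' processing notes, STAR 2.6.0 (hg38), HTSeq 0.11.2 and DESeq2 1.24.0 served the authors for alignment, counting and normalisation; libraries came from the Illumina TruSeq RNA V2 kit. The annotation and the strand setting are not given in the sources used here. What the authors deposited is a signal: the counts of each gene over the size factor of its library; 100% of them were whole multiples of 1 read (tolerance 0.01), so reads were recovered. The 3 reads that a count of 0 allows equalled values of 1.99 to 4.44 in TE6, for counting error only.

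The main test was limma 3.58.1 (R 4.3.3; lmFit, eBayes with trend) on log2(value + 1) for 4 libraries, two-sided, for genes with a mean of at least 10 over 6 libraries; called at an adjusted p under 0.05 and 0.5 log2 units. Genes named are 5 preset genes, the 8 largest and 8 smallest differences and the top 3 per position class (all with a mean of at least 100 and no overlap), and the top 3 called members per list. Other genes, among them S100A2, GRHL1 to GRHL3, the plakins, KRT4, FLG, HLA-C, TAPBP, PSMB9 and SREBF2, were chosen after their values were seen. A few genes that the rule names are not reported here. The members and lists were chosen with earlier results of these data known. Symbols were matched to GENCODE 44 (92.7%). Alternatives used edgeR 4.0.16 and DESeq2 1.42.0 on recovered reads. Fits were tested on simulated data. The contrast between the lines and the descriptions of transcripts and promoters were added after the data were seen.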

Additional observations from a re-analysis of the deposited data

Results flagged for a closer look

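Among the genes picked by the naming rule, 8 were called in both lines with opposite signs. For these the difference between the lines passed a limma contrast chosen after the data were seen. Genes named outside the rule were not counted here. GRHL3 is one of those, called lower in TE6 (-1.35) and higher in KYSE180 (0.61, limma adjusted p = 0.0409). Interferon-linked genes made up 5 of the 8. The difference of the TE6 and KYSE180 differences was 4.63 for IFIT2 (adjusted p = 1.70e-10), 4.10 for OASL (adjusted p = 1.39e-11), 2.91 for HERC5 (adjusted p = 1.45e-09), 3.37 for DDX60 (adjusted p = 1.15e-09) and 3.93 for CCL5 (adjusted p = 7.46e-06). In TE6 these genes were high with siBRDT, and in KYSE180 their changes with siTP63 (2.54, 1.23, 1.07, 1.63 and 1.68) exceeded those with siBRDT (0.86, 0.07, 0.19, -0.13 and 0.30).

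KLF4, a differentiation factor, differed by 2.31 (adjusted p = 2.38e-06), AFF1, an elongation factor, by 1.56 (adjusted p = 0.000276; its own TE6 call was lost without either siTP63 library, adjusted p up to 0.174) and HMOX1, heme oxygenase, by -2.46 (adjusted p = 1.81e-06). HMOX1 was at 51.8 and 53.8 with siBRDT and 149.9 and 145 with siTP63 in TE6, and its KYSE180 difference was 1.00 (adjusted p = 0.000499). These 8 differences kept their sign and stayed past the threshold without each of the 4 TE6 libraries in turn. In all, 146 genes were called in both lines with opposite signs and with a difference between the lines.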

How the results depend on the processing

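The counts of 1716 genes higher and 1697 lower with siBRDT moved by over 1.5 times in 3 ways. Without a filter on low values they were 590 and 521, over 22147 genes. With a limit of 1 log2 unit they were 629 and 620. Leaving out 1 library gave 815 to 2202 higher and 589 to 2249 lower, the low ends without a siTP63 library. They were 1476 and 1253 with DESeq2, 1787 and 1671 with edgeR, and 1902 and 1882 with all 6 libraries in 1 fit. With the replicate block they were 1778 and 1745, and no named gene's call changed; the numbers do not pair the samples (correlation of same-numbered deviations -0.03). No called gene changed sign under any alternative. Of 123 named genes 71 had the same call under every alternative. The KYSE180 counts stayed within 1.5 times under every alternative run. With 2 libraries a group, and 7582089 reads in the shallowest, genes under a mean of 10 were not tested.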

Other observations

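Among 29 RNA sensors and genes of interferon signalling, 2 were higher and 5 lower with siBRDT in TE6 (median -0.11). The share called was 24.1%, against 25.6% of all genes tested. Fewer were called lower with either siTP63 replicate left out. Receptor and kinase genes were among the lower ones, chosen here after their values were seen. IFNGR1, a chain of the interferon gamma receptor, was at 481 and 505 in siCont, 207 and 219.8 in siBRDT, and 401 and 352 in siTP63 (-0.81 ± 0.15, limma adjusted p = 0.003). JAK1, a kinase bound to interferon receptors, was at 588 and 645, 249 and 319, and 422 and 482 (-0.68 ± 0.16, adjusted p = 0.0111). Both were lowest with siBRDT, while the interferon effectors OASL and IFIT2 were highest with it.

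Of 7 clade B serpins, intracellular protease inhibitors of epithelia, 2 were higher and 2 lower with siBRDT. SERPINB3, the squamous cell carcinoma antigen gene, was at 142 and 140.4 in siCont, 160 and 197 in siBRDT, and 73.6 and 59.2 in siTP63 (1.41 ± 0.21, adjusted p = 0.00109). It was therefore lowest with siTP63, and it overlaps SERPINB11 on the opposite strand. Without siTP63 replicate 1 there was 1 higher and 1 lower, and without replicate 2 there were 2 higher and none lower.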
